A study of Mus musculus with 899 samples.

Results

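The miR-30 family was followed in mouse plasma through its 5 members named as 5p arms, mmu-miR-30a-5p, mmu-miR-30b-5p, mmu-miR-30c-5p, mmu-miR-30d-5p and mmu-miR-30e-5p, written from here on without the species prefix. They were chosen by name from the 1915 miRNA listed in the count table, and 5 of 5 were among the 483 miRNA that passed the filter on low counts. Blood had been drawn from C3H mice (C3Hf/Sed/Kam) and C57Bl/6 mice, a pair of inbred strains that develop different late lung injuries, after irradiation of the whole thorax or after sham irradiation. The 899 plasma samples came from 196 mice, with 64 of the C3H animals irradiated and 32 of them sham treated, and 68 of the C57Bl/6 animals irradiated and 32 sham treated. Each strain held a first and a second cohort of males aged 8 to 10 weeks and females aged 10 to 12 weeks, so sex and age cannot be told apart.

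Samples were taken before irradiation (PT), at day 2 (D2) in some mice and day 5 (D5) in others, and then monthly, to month 4 (M4) in C3H and to month 6 (M6) in C57Bl/6. Only mice of cohort 1 were sampled after month 1. In irradiated C3H mice the numbers were 64 at PT, 32 at D2, 32 at D5, 58 at M1, 28 at M2, 27 at M3 and 17 at M4. In irradiated C57Bl/6 mice they were 64, 32, 32, 68, 36, 31 and 29 at the same time points, then 21 at M5 and 8 at M6, and 4 irradiated females had no sample before M1. Mice that reached the criteria for early euthanasia gave no further samples, so the late irradiated groups hold the animals still alive. Sham groups held 32 mice at PT and M1 and 16 at every other time point in either strain. The samples held 206490 to 11814515 counts in total (median 1475030), and no 2 samples held identical values.

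MicroRNA of about the length printed here pair with messenger RNA mainly through bases 2 to 8, the seed, and lower the translation and stability of the transcripts they pair with. The members of the miR-30 family share a seed, so they are predicted to act on overlapping transcripts, while the bases after the seed differ between members. The family is made in many tissues, with high levels in epithelium, kidney and heart muscle, and is known for targeting transcripts of connective tissue growth factor and Snail, both of which take part in fibrosis and in the loss of epithelial character. Plasma collects miRNA from all of these tissues and from blood cells, and fewer releasing cells, less release per cell and faster clearance cannot be told apart in it.

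The sequences of 3 of the 5 members were read from RefSeq (GRCm38.p6), and they are shown with 1 further miRNA of the same seed because they make plain what the members have in common and how little separates some of them. They run 5′ to 3′, and capitals mark bases 2 to 8.
miR-30a-5p: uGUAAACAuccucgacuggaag
miR-30c-5p: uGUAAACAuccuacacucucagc
miR-30e-5p: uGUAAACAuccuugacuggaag
miR-384-5p: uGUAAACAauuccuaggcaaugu

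Among the 1679 mature miRNA names in the same RefSeq table, these 4 share bases 2 to 8. That table held no entry matching miR-30b-5p or miR-30d-5p, so their seed was not read here and the list is not complete. With positions counted from 1 at the 5′ end and the base of miR-30a-5p given first, miR-30e-5p differed from miR-30a-5p by the single substitution C13U. In the same notation miR-30c-5p differed by C13A, G14C, G18C, G19U and A20C. The separation of miR-30a-5p from miR-30e-5p in the counts therefore rests on 1 base. A read with a C to U or U to C error there could be counted for the other.

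The hairpins of these 3 members lie in pairs. In GRCm38, miR-30a-5p lies at chr1:23272274-23272295 on the plus strand, and Mir30c-2 gives miR-30c-5p at chr1:23291714-23291736 on the same strand, inside an exon of the long noncoding RNA Gm27028. The other miR-30c-5p locus, Mir30c-1, lies at chr4:120769584-120769606 on the minus strand, and miR-30e-5p lies at chr4:120772660-120772681 on the same strand. Both of these are in an intron of Nfyc, which encodes a subunit of the nuclear transcription factor Y. The hairpins Mir30a and Mir30c-2 were 19361 bases apart and Mir30c-1 and Mir30e 2983 bases apart. Reads of miR-30c-5p cannot be assigned to either of its loci. The Mir30e hairpin overlaps Mir30f on the opposite strand.

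Together the 5 members held 0.966% ± 0.261 (SD, n = 899) of all miRNA reads of a sample, between 0.146% and 2.38%. Within the family, miR-30d-5p had the largest mean share of the members' reads (38.5%), followed by miR-30a-5p (26.1%), miR-30e-5p (23.3%), miR-30c-5p (7.44%) and miR-30b-5p (4.70%). Levels are given from here on as log2 CPM, the counts of a miRNA scaled to a common library size by the trimmed mean of M-values (TMM) of edgeR. Ligation and amplification bias between miRNA was not measured, so the order describes reads and not molecules.

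Over all samples miR-30d-5p stood at 11.79 ± 0.38 (SD, n = 899), miR-30a-5p at 11.23 ± 0.37, miR-30e-5p at 11.05 ± 0.46, miR-30c-5p at 9.29 ± 0.64 and miR-30b-5p at 8.64 ± 0.72. Every member was read in every sample. The median number of reads per sample was 5240 for miR-30d-5p, 3562 for miR-30a-5p, 3169 for miR-30e-5p, 919 for miR-30c-5p and 596 for miR-30b-5p. The lowest numbers were 177 reads for miR-30a-5p and miR-30d-5p, 154 for miR-30e-5p, 25 for miR-30c-5p and 1 for miR-30b-5p.

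The order of the 3 abundant members was not the same in the strains. Before irradiation miR-30d-5p exceeded miR-30a-5p in 179 of 192 samples, miR-30e-5p exceeded miR-30c-5p in 184 and miR-30c-5p exceeded miR-30b-5p in 180. Between these, miR-30a-5p exceeded miR-30e-5p in 85 of 96 C57Bl/6 samples but in 29 of 96 C3H samples. Across the 32 groups of strain, treatment and time point, group means ran from 10.50 to 11.50 for miR-30a-5p, from 8.19 to 9.14 for miR-30b-5p, from 8.77 to 10.16 for miR-30c-5p, from 11.14 to 12.31 for miR-30d-5p and from 10.22 to 11.48 for miR-30e-5p.

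**Figure D1:**
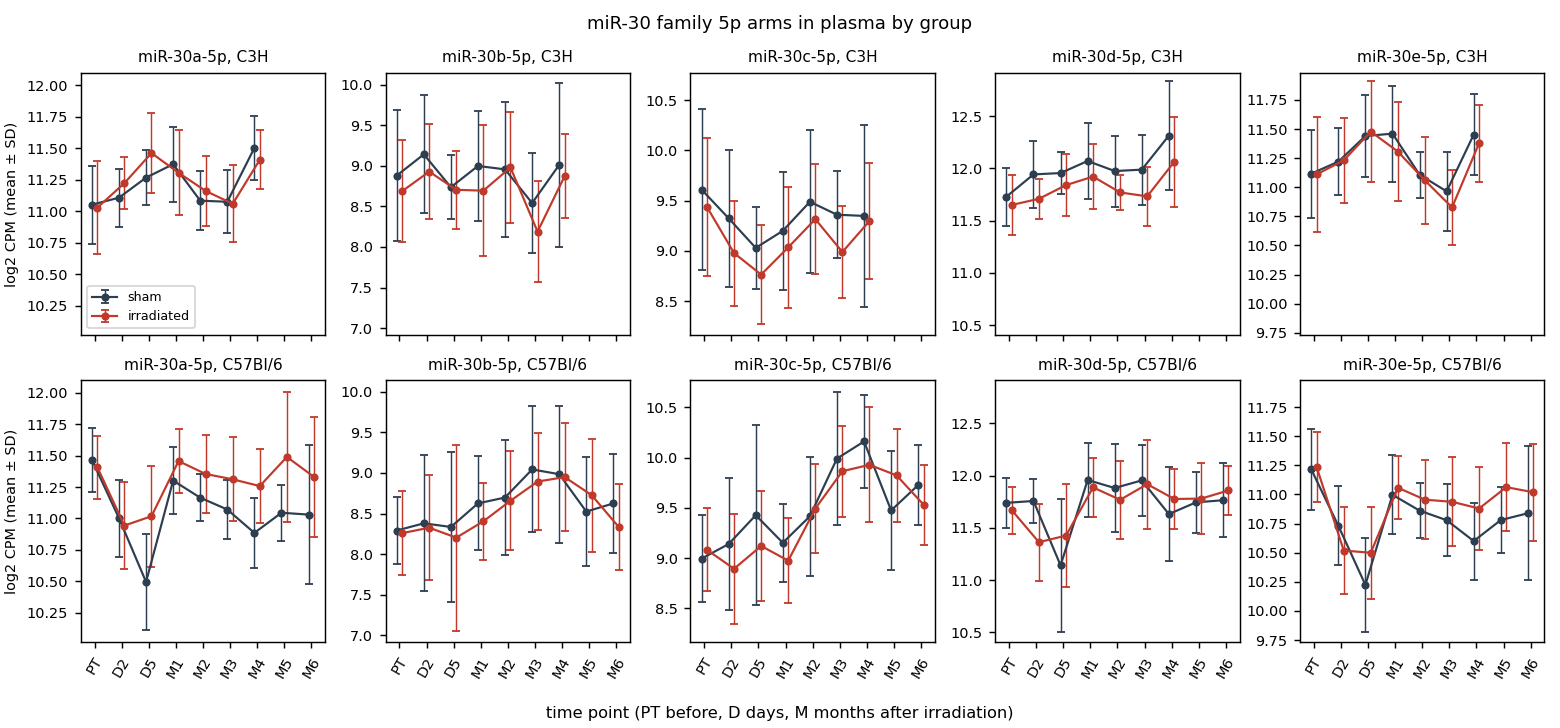
Mean level of each member (log2 CPM, vertical axis; error bars, SD over samples) at each time point (horizontal axis) in irradiated and sham mice of either strain. In C57Bl/6 the miR-30a-5p and miR-30e-5p lines lie lower at D2 and D5 than at PT in sham and irradiated mice, and at D5 the irradiated mean of miR-30a-5p (11.02) is above the sham mean (10.50).

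Before irradiation, 3 of the 5 members differed between the strains, 1 higher and 2 lower in C57Bl/6, among 483 miRNA of which 50.7% did (21.9% higher and 28.8% lower). The level of miR-30a-5p was higher in C57Bl/6, whereas miR-30b-5p and miR-30c-5p were higher in C3H. The lowest, median and highest miR-30a-5p values were 10.57, 11.45 and 12.05 in C57Bl/6 (n = 96) and 10.10, 11.08 and 11.79 in C3H (n = 96), and 87 of the 96 C57Bl/6 samples lay above the C3H median although the groups overlapped. C57Bl/6 minus C3H gave a log2 fold change of 0.38 with a standard error (SE) of 0.05 (adjusted p = 2.05e-13) in the quasi-likelihood test of edgeR, with p adjusted over the 483 miRNA by the Benjamini-Hochberg method.

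For miR-30b-5p the values were 7.23, 8.27 and 9.47 in C57Bl/6 and 7.26, 8.68 and 10.86 in C3H, a log2 fold change of -0.61 (adjusted p = 1.49e-08, edgeR). For miR-30c-5p they were 8.16, 9.0 and 10.08 in C57Bl/6 and 8.26, 9.40 and 11.38 in C3H, a log2 fold change of -0.62 (adjusted p = 1.18e-11, edgeR). The groups overlapped over most of their range, and C57Bl/6 samples lay below the C3H median in 76 and 73 of 96 cases. No difference passed the test for miR-30d-5p (0.01, adjusted p = 0.932) or miR-30e-5p (0.08, adjusted p = 0.231) by edgeR.

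The strain differences depended on the cohort. In cohort 1 the log2 fold change was 0.75 for miR-30a-5p, -1.05 for miR-30c-5p, 0.29 for miR-30d-5p (adjusted p = 5.16e-04) and 0.51 for miR-30e-5p (adjusted p = 4.61e-09), and in cohort 2 it was 0.09 (adjusted p = 0.286), 0.06 (adjusted p = 0.678), -0.23 (adjusted p = 0.00150) and -0.24 (adjusted p = 0.00939), all by edgeR. Only miR-30b-5p kept its direction and its call in both, at -0.71 in cohort 1 and -0.45 (adjusted p = 0.00141) in cohort 2 by edgeR. The C3H mice of cohort 1 lay apart from the other 3 sets of mice: mean miR-30a-5p of their 4 groups of sex and later treatment was 10.74 to 10.90, against 11.21 to 11.38 in C3H mice of cohort 2. In the same order, mean miR-30c-5p was 9.87 to 10.27 against 8.74 to 9.15. Red blood cell miRNA moved with the strain, since 6 of 6 on a fixed list (miR-451a, miR-144-3p, miR-144-5p, miR-486a-5p, miR-486b-5p and miR-16-5p) were lower in C57Bl/6. So were 3 of 5 leukocyte miRNA (miR-150-5p, miR-155-5p, miR-142a-3p, miR-142a-5p and miR-223-3p), 2 of 4 liver miRNA (miR-122-5p, miR-122-3p, miR-192-5p and miR-802-5p) and 3 of 4 pancreatic miRNA, while 2 of 2 endothelial miRNA were higher. Epithelial miRNA went both ways (2 of 5 higher, 1 lower), as did muscle miRNA (1 of 7 higher, 1 lower). The part of any of these sources in the differences was not tested. No miRNA of the marker lists used here was at 0 in all samples.

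**Figure D2:**
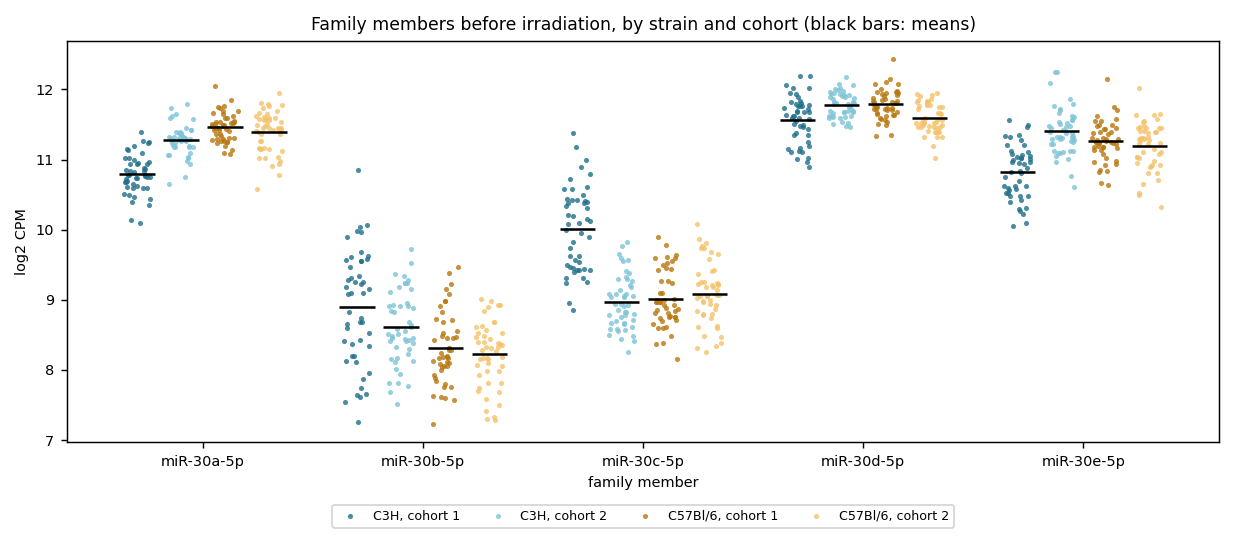
Level of each member (log2 CPM, vertical axis) before irradiation in every sample (points), by strain and cohort, with horizontal bars at the means. The C3H samples of cohort 1 are set lower for miR-30a-5p and miR-30e-5p and higher for miR-30c-5p than those of cohort 2.

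Between the sexes, 1 of the 5 members, miR-30e-5p, differed before irradiation in each strain, where 14.5% (C3H) and 14.7% (C57Bl/6) of the 483 miRNA did. In C57Bl/6, the lowest, median and highest values were 10.63, 11.37 and 12.14 in females (n = 48) and 10.33, 11.18 and 11.63 in males (n = 48), and 37 of 48 females exceeded the male median. Female minus male was 0.26 on the log2 scale (SE 0.08, adjusted p = 0.00841) by edgeR. In C3H the values were 10.10, 11.27 and 12.25 in females and 10.05, 11.10 and 11.86 in males, and the log2 fold change was 0.22 (SE 0.08, adjusted p = 0.0397) by edgeR. The sexes overlapped in both strains. In cohort 1 alone miR-30e-5p was not called in either strain.

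Sham mice showed how far the measured levels of the family moved without radiation. Age, handling, repeated bleeding and sequencing run can change with the time point in sham mice too, and cannot be told apart here. In either strain all tests against PT share the same PT samples, and the same mice return at several time points. Repeated calls of a member are therefore not independent. In sham C57Bl/6 mice 24 of 40 tests of a member against PT were called (9 higher and 15 lower), where 26.9% of all tests of the 483 miRNA at these 8 time points were (15% higher and 11.9% lower). The members went apart: miR-30a-5p and miR-30e-5p were called lower at 7 of 8 time points each and never higher, miR-30c-5p was called higher at 6 time points and miR-30b-5p at 2, and miR-30d-5p was lower at D5 and higher at M1. By number of calls, miR-30b-5p and miR-30d-5p moved least. Without TMM factors, miR-30a-5p and miR-30e-5p kept their direction but were not called at M2, M3 and M6, with log2 fold changes between -0.29 and -0.02. Some calls were less stable: miR-30c-5p at M2 was lost in 8 of 13 alternatives and at M5 in 3 of 13, in both cases also in cohort 1 alone, and miR-30d-5p at M1 was lost in 6 of 14, among them the DESeq2 test and either cohort alone. In cohort 2 alone miR-30a-5p and miR-30e-5p at D2 and miR-30c-5p at D5 were not called.

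The deepest fall was at day 5. In sham C57Bl/6 mice miR-30a-5p was 10.77, 11.49 and 12.05 (lowest, median and highest) at PT (n = 32) and 9.63, 10.62 and 10.96 at D5 (n = 16). Of the 16 samples at D5, 13 lay below the lowest PT sample, and the level was below the mouse's own PT value in 16 of 16 mice. In edgeR this was a log2 fold change of -0.95 (SE 0.10, adjusted p = 1.40e-17). The level of miR-30e-5p went from 10.49, 11.22 and 12.14 to 9.35, 10.26 and 10.71, a log2 fold change of -0.99 (SE 0.12, adjusted p = 3.38e-14) by edgeR, with 15 of 16 mice below their own PT value. The level of miR-30d-5p fell less, by 0.51 on the log2 scale (adjusted p = 2.79e-05, edgeR), in 14 of 16 mice. Within cohort 1 and cohort 2 alone, the change of miR-30a-5p was -1.04 and -1.0 and that of miR-30e-5p -1.16 and -0.97 on the log2 scale. The 4 sham females of cohort 2 were the lowest set at D5, with miR-30a-5p at 10.01 ± 0.44 (SD, n = 4). At D5 3 of 5 leukocyte miRNA were higher than at PT and 2 lower, and 3 of 6 red blood cell and 2 of 4 pancreatic miRNA were lower. Calls in the epithelial list went both ways (log2 fold change 1.62 for miR-200c-3p, -0.55 for miR-200a-3p), as in muscle (2.35 for miR-206-3p, -3.24 for miR-208a-3p). Endothelial miR-126a-5p (-0.54) and liver miR-192-5p (-0.45) were called lower. The part of these sources in the members' changes was not tested.

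Later miR-30b-5p and miR-30c-5p rose while miR-30a-5p and miR-30e-5p were below PT. At M4 in sham C57Bl/6 mice miR-30c-5p was 9.35, 10.12 and 11.09 (n = 16) against 8.16, 8.96 and 9.82 at PT (n = 32), and 14 of 16 samples exceeded the highest PT sample. Sham M4 minus PT was 1.17 on the log2 scale (SE 0.17, adjusted p = 1.64e-10) by edgeR, after 1.07 (adjusted p = 4.30e-09) at M3. For miR-30b-5p it was 0.90 at M3 and 0.91 at M4, with M4 values of 7.89, 9.08 and 11.16 against 7.33, 8.30 and 9.38 at PT. In the same M4 samples miR-30a-5p fell by 0.58 and miR-30e-5p by 0.62 on the log2 scale, each in 15 of 16 mice, while miR-30c-5p was higher in 15 of 16 mice. Months 2 to 6 hold cohort 1 only, and against PT samples of cohort 1 alone miR-30c-5p rose by 1.07 and miR-30a-5p fell by 0.73 at M4. In these samples 5 of 5 epithelial miRNA of a fixed list (miR-200a-3p, miR-200b-3p, miR-200c-3p, miR-141-3p and miR-429-3p) were also higher than at PT, as were 3 of 5 leukocyte miRNA, while 4 of 6 red blood cell and 2 of 4 pancreatic miRNA were lower. The summed level of the epithelial list was 15546 to 55282 CPM (median 25408) at M4 and 8366 to 21594 CPM (median 14314) at PT, and the part of these sources in the members' changes was not tested. Day 5 in sham C57Bl/6 was also the group with the lowest median total, 855374 counts.

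In sham C3H mice the pattern was another one. There 10 of 30 tests against PT were called (8 higher and 2 lower), where 26.2% of all tests of the 483 miRNA at these 6 time points were (12.5% higher and 13.7% lower). At M4, miR-30d-5p was 11.74, 12.19 and 13.58 (n = 16) against 11.02, 11.79 and 12.19 at PT (n = 32), and 8 of 16 samples exceeded the highest PT sample. The rise was 0.66 on the log2 scale (SE 0.10, adjusted p = 3.99e-09) by edgeR, and miR-30a-5p rose by 0.44 (adjusted p = 3.94e-05) and miR-30e-5p by 0.33 on the same scale. The calls of miR-30c-5p were both lower, by 0.76 at D5 (adjusted p = 4.96e-04) and by 0.52 at M1 by edgeR. No time point was called for miR-30b-5p. At M4 the summed epithelial miRNA stood at 16333 to 75978 CPM (median 28464) against 3565 to 25970 CPM (median 10198) at PT, with 5 of 5 higher, and 5 of 6 red blood cell miRNA were lower, and their part in these changes was not tested.

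The C3H time course rested on which cohort was measured at PT. The samples of months 2 to 4 are all from cohort 1, whereas PT holds both cohorts. Against PT samples of cohort 1 alone, 18 of 30 tests were called, with 0.75 for miR-30a-5p and 0.82 for miR-30d-5p at M4. The fall of miR-30c-5p at M1 was 0.84 on the log2 scale in cohort 1 and was not called in cohort 2 (log2 fold change 0.02, adjusted p = 0.964, edgeR). Likewise miR-30c-5p at D5 was at -0.21 (adjusted p = 0.727, edgeR) in cohort 2 alone, and neither of its calls was made without TMM factors. The calls of miR-30e-5p at D5 and of miR-30a-5p, miR-30d-5p and miR-30e-5p at M1 were also lost in cohort 2 alone.

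**Figure D3:**
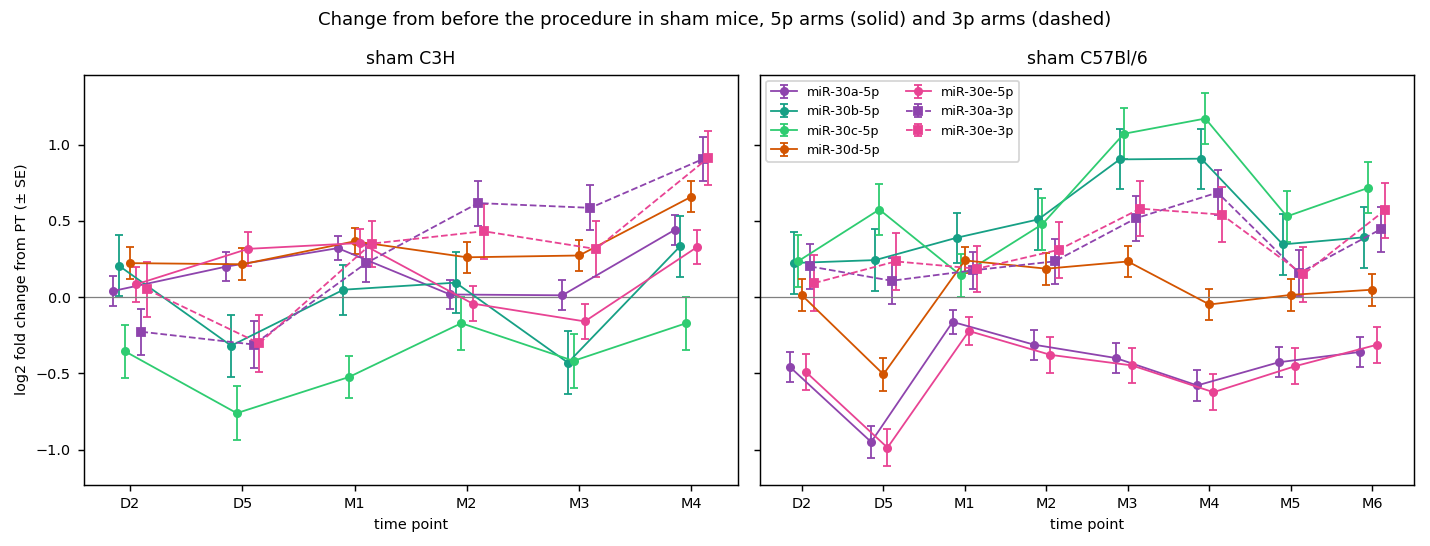
Change from PT in sham mice (log2 fold change, vertical axis; error bars, standard error) at each later time point (horizontal axis), for the 5p members (solid lines) and miR-30a-3p and miR-30e-3p (dashed lines). In C57Bl/6 miR-30a-5p and miR-30e-5p run below 0 and miR-30c-5p above it, whereas in C3H miR-30c-5p runs below 0 and miR-30d-5p above it.

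The comparison of irradiated with sham mice was made at each time point within a strain. At PT, before any treatment, 0 of 5 members were called in either strain by edgeR, where 0% of the 483 miRNA were called, with 2 members at an unadjusted p under 0.05 in C3H and 0 in C57Bl/6. By limma-voom and DESeq2 0 members were called there too.

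In C3H mice 0 of 30 tests after irradiation were called by edgeR, where 2.42% of all tests of the 483 miRNA at these time points were. By limma-voom and DESeq2 0 of 30 were called as well, and 9 of 30 had an unadjusted p under 0.05 by edgeR. The log2 fold changes (irradiated minus sham) lay between -0.47 and 0.21 with a median of -0.16, against -0.04 over all tests of the 483 miRNA. Those of miR-30b-5p, miR-30c-5p and miR-30d-5p were below 0 at 6 of 6 time points. For miR-30d-5p they were -0.26 at D2, -0.17 at M1, -0.24 at M2, -0.27 at M3 and -0.29 at M4, each with an unadjusted p under 0.05 by edgeR but none past adjustment. At PT, before treatment, the log2 fold changes of the members in C3H already ran from -0.28 to 0.03, with a median of -0.08. The mean difference of miR-30d-5p at PT was -0.17 in females and -0.09 in males of cohort 1. In cohort 2 it was -0.06 in females and 0.003 in males. The comparison at each time point has its own samples of the same mice, so the repeated direction is not independent.

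In C57Bl/6 mice 4 of 40 tests after irradiation were called by edgeR (3 higher and 1 lower in irradiated mice), where 4.76% of all tests of the 483 miRNA were (2.46% higher and 2.3% lower). Both limma-voom and DESeq2 also called 4, of which 4 and 3 were the same tests. The higher calls were all of miR-30a-5p, at D5, M4 and M5, and the lower one was of miR-30d-5p at D2. The log2 fold changes of all 40 tests lay between -0.42 and 0.55, with a median of 0.03 against -0.05 over all tests. No call was made for miR-30b-5p, miR-30c-5p or miR-30e-5p by edgeR.

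At D5, where 14.1% of the 483 miRNA were called, the lowest, median and highest miR-30a-5p values were 9.96, 11.07 and 11.91 in irradiated (n = 32) and 9.63, 10.62 and 10.96 in sham C57Bl/6 mice (n = 16). The groups overlapped, but 19 of 32 irradiated samples exceeded the highest sham sample and 28 exceeded the sham median. Irradiated minus sham was 0.53 on the log2 scale (1.45-fold, SE 0.10, adjusted p = 4.97e-06) by edgeR. Neither group was above its level before irradiation, since the means were 11.41 at PT and 11.02 at D5 in irradiated mice and 11.47 and 10.50 in sham mice. The level was below the mouse's own PT value in 26 of 32 irradiated and 16 of 16 sham mice.

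The difference at D5 was uneven between cohorts and sexes. Mean irradiated minus mean sham log2 CPM was -0.04 in females and 0.36 in males of cohort 1, and 1.30 in females and 0.47 in males of cohort 2. The 4 sham females of cohort 2, the lowest set as given above, were also low in miR-30c-5p, at 8.22 ± 0.95 (SD, n = 4), against 9.64 to 9.94 in the means of the other 3 sets of sham mice at D5. In cohort 1 alone the log2 fold change was 0.30 (adjusted p = 0.213), in cohort 2 alone 0.73 (adjusted p = 5.96e-06), in males alone 0.39 (adjusted p = 0.0596) and without the females of cohort 2 0.39 (adjusted p = 0.0214), all by edgeR. In the same comparison 4 of 5 leukocyte miRNA were lower in irradiated mice and 0 higher. Their summed level was 4673 to 10649 CPM (median 8174) in irradiated and 9175 to 23413 CPM (median 16306) in sham mice. Of the other lists, 1 of 6 red blood cell, 1 of 2 endothelial, 1 of 4 pancreatic and 1 of 7 muscle miRNA were higher and 0 lower. Epithelial miRNA went both ways (2 of 5 higher, 1 lower), as did liver miRNA (1 of 4 higher, 2 lower). The part of these sources in the result was not tested.

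**Figure D4:**
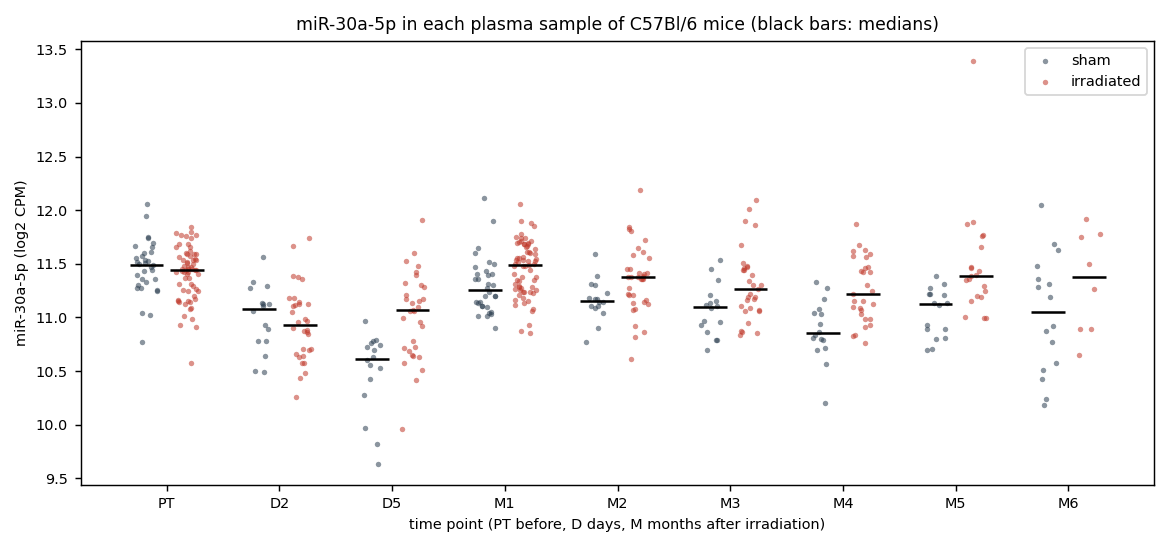
Level of miR-30a-5p (log2 CPM, vertical axis) in every C57Bl/6 sample (points) at each time point (horizontal axis), irradiated beside sham, with horizontal bars at the medians. At D5 the irradiated median is 11.07 and the sham median 10.62, and at M5 a single irradiated sample stands at 13.39.

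At M4, where 4.76% of the 483 miRNA were called, miR-30a-5p was 10.77, 11.21 and 11.87 in irradiated (n = 29) and 10.20, 10.85 and 11.33 in sham mice (n = 16), and 12 irradiated samples exceeded the highest sham sample. Irradiated minus sham was 0.38 on the log2 scale (1.30-fold, SE 0.10, adjusted p = 0.00808) by edgeR. At M5, where 3.52% were called, the values were 10.99, 11.39 and 13.39 in irradiated (n = 21) and 10.70, 11.12 and 11.38 in sham mice (n = 16), and 11 irradiated samples exceeded the highest sham sample. On the same scale the difference was 0.55 (1.46-fold, SE 0.11, adjusted p = 4.52e-05) by edgeR. The groups overlapped at both time points, with 26 of 29 and 18 of 21 irradiated samples above the sham median.

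The irradiated sample at 13.39 came from 1 female, and the next highest stood at 11.89. Without it the log2 fold change at M5 was 0.36 (SE 0.10, adjusted p = 0.0312) by edgeR, an alternative chosen after seeing the data. With all samples but no TMM factors it was 0.42 (adjusted p = 0.0515). The samples of M4 and M5 are from cohort 1 alone. Many of them are repeat samples of the same mice, so the calls at M4 and M5 are not independent. A PT sample existed for 25 of 29 irradiated mice at M4 and for 18 of 21 at M5. The rest were irradiated females with no sample before M1. The mean difference was larger in females (0.45 at M4 and 0.67 at M5) than in males (0.30 and 0.28). This contrast between the sexes was not itself tested. In males alone the log2 fold change was 0.26 (adjusted p = 0.258) at M4 and 0.30 (adjusted p = 0.523) at M5 by edgeR. Liver miRNA moved with both results, with 3 of 4 higher in irradiated mice at M4 and 4 of 4 at M5. Their summed level was 4013 to 132096 CPM (median 20276) in irradiated and 3035 to 10371 CPM (median 7510) in sham mice at M4. At M5 it was 5517 to 194720 CPM (median 23672) against 3499 to 11547 CPM (median 6656). Of 4 pancreatic miRNA, 3 were also higher at M4 and 2 at M5. The pancreatic sum was 468 to 1367 CPM in irradiated and 372 to 1124 CPM in sham mice at M4, and 296 to 1552 CPM against 396 to 1716 CPM at M5. Where miR-30a-5p was not called, 3 of 4 liver and 3 of 4 pancreatic miRNA were also higher at M2. At M3 1 liver and 2 pancreatic miRNA were higher, and at M1 and M6 0 liver and 2 pancreatic miRNA were. The part of either tissue in the miR-30a-5p result was not tested.

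At the other time points miR-30a-5p was not called in C57Bl/6 by edgeR, with log2 fold changes of -0.05 at D2, 0.15 at M1 (adjusted p = 0.244), 0.21 at M2, 0.26 at M3 and 0.27 at M6 (adjusted p = 0.527). Only 8 irradiated mice were left at M6, and 0 of them exceeded the highest sham sample. With each mouse as a fixed replicate block, fitted jointly over all of its samples, limma-voom gave 0.54 (adjusted p = 0.0302) at M6. Taken directly from the mouse's own PT sample, the mean change of miR-30a-5p at M6 was -0.09 (SD 0.58, n = 8) in irradiated mice. In sham mice it was -0.47 (SD 0.58, n = 16). The values of miR-30e-5p, 1 base away from miR-30a-5p, were 0.28 at D5 (adjusted p = 0.0858), 0.29 at M4 and 0.31 at M5, none of them called by edgeR. At D5 miR-30d-5p stood at 0.26 (adjusted p = 0.0810) and miR-30c-5p at -0.42 (adjusted p = 0.0750) in the same edgeR fit. The cohorts gave different values. In cohort 1 alone these were -0.02 and -0.86 (adjusted p = 0.941 and 0.00427, edgeR), and in cohort 2 alone they were 0.56 and -0.01 (adjusted p = 3.08e-04 and 0.992, edgeR). For miR-30c-5p the mean difference in cohort 2 was 1.03 in females and -0.34 in males.

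For miR-30d-5p at D2, where 6.63% of the 483 miRNA were called, the values were 10.76, 11.38 and 12.41 in irradiated (n = 32) and 11.26, 11.75 and 12.06 in sham C57Bl/6 mice (n = 16). The irradiated samples spread over the whole sham range, but 29 of 32 lay below the sham median. The log2 fold change was -0.36 (SE 0.10, adjusted p = 0.0115) by edgeR, and the mean difference was below 0 in each set of cohort and sex, between -0.57 and -0.18. Cohort 1 alone gave -0.47 (adjusted p = 0.0352) and cohort 2 alone -0.21 (adjusted p = 0.483) by edgeR. This call was the least stable of the 4, lost in 10 of 22 alternatives, among them DESeq2 size factors, no TMM factors, no filter, only miRNA of at least 50 CPM, males alone, and the females of either cohort left out. With each mouse as a fixed replicate block limma-voom gave -0.31 (adjusted p = 0.164), and DESeq2 gave an adjusted p of 0.0823. Of the leukocyte miRNA 2 of 5 were lower at D2, and their summed level was 3267 to 12012 CPM (median 6930) in irradiated and 7027 to 17799 CPM (median 11747) in sham mice. Of the liver miRNA 2 of 4 were higher and 1 lower, with sums of 3555 to 16472 CPM (median 7586) in irradiated and 2051 to 34871 CPM (median 5302) in sham mice. The pancreatic sum, with 1 of 4 miRNA higher, was 1230 to 7815 CPM (median 3375) against 445 to 1260 CPM (median 720). The part of these sources in the result was not tested.

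**Figure D5:**
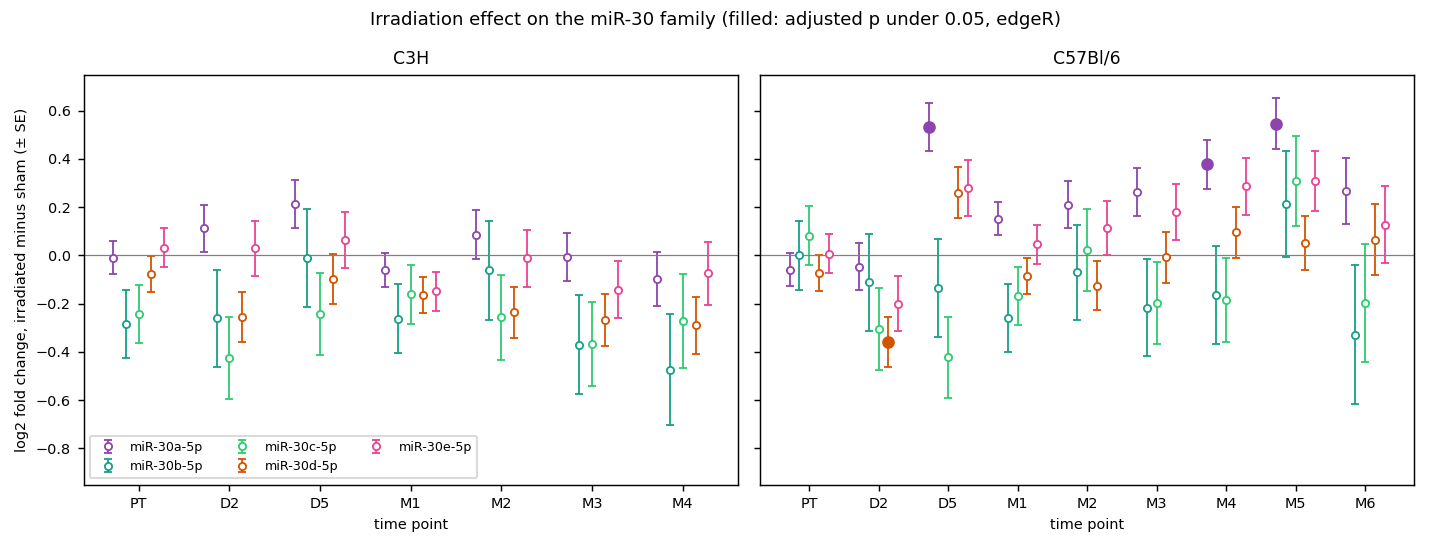
Difference between irradiated and sham mice (log2 fold change, vertical axis; error bars, standard error) for each member at each time point (horizontal axis) in either strain, with filled points where the adjusted p was under 0.05. The filled points are miR-30a-5p at D5 (0.53), M4 (0.38) and M5 (0.55) and miR-30d-5p at D2 (-0.36), all in C57Bl/6.

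Whether the time course of the irradiation effect differed between the strains was tested in edgeR by an F test of the 6 differences between strains, at D2, D5 and M1 to M4. Of the 5 members 1, miR-30a-5p, was called (adjusted p = 0.0105), where 4.35% of the 483 miRNA were. The effect in C57Bl/6 minus that in C3H was -0.16 at D2, 0.32 at D5, 0.21 at M1, 0.12 at M2, 0.27 at M3 and 0.47 (SE 0.15) at M4 on the log2 scale. Taken singly, no time point was past the threshold, the lowest adjusted p being 0.0914 at M4 by edgeR. Over the alternatives the adjusted p of the edgeR or limma F test ranged from 0.00876 to 0.117, the largest being that without the C57Bl/6 females of cohort 2. For the other members the adjusted p was 0.215 (miR-30d-5p), 0.265 (miR-30e-5p), 0.980 (miR-30c-5p) and 0.988 (miR-30b-5p) by edgeR.

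The 3p arms of the same hairpins were far rarer. Mean levels over all samples were 7.60 ± 0.57 (SD, n = 899) for miR-30a-3p and 6.07 ± 0.65 for miR-30e-3p, both read in every sample. The arms miR-30d-3p and miR-30c-2-3p stood near 2 log2 CPM (1.92 and 1.61) and were at 0 reads in 23.6% and 26% of samples, while miR-30b-3p (62.5% at 0) and miR-30c-1-3p (80.8% at 0) did not pass the filter. The other miRNA of the seed, miR-384-5p, stood at 1.44 and was at 0 in 33.3% of samples.

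The arms of a hairpin moved apart at some time points in sham C57Bl/6 mice and in the same direction at others. At M4 in sham C3H mice they moved in the same direction. In sham C57Bl/6 mice at M4, where miR-30a-5p and miR-30e-5p were lower than at PT, miR-30a-3p rose by 0.69 and miR-30e-3p by 0.54 on the log2 scale (adjusted p = 3.53e-05 and 0.0120, edgeR). These are comparisons with PT samples of both cohorts. Against the mouse's own PT sample the mean change at M4 was smaller, at 0.24 for miR-30a-3p (higher in 11 of 16 mice) and 0.14 for miR-30e-3p (higher in 9 of 16). By the same measure both arms of miR-30a were lower at M2 (-0.34 for miR-30a-5p, -0.28 for miR-30a-3p). At M5 they were lower too (-0.46 and -0.32). In sham C3H mice at M4 both arms were higher, with miR-30a-3p at 0.90 and miR-30e-3p at 0.91. Within groups, over 899 samples, Pearson's r between the arms was -0.05 for miR-30a and -0.29 for miR-30e, which are values from the same libraries and share their depth.

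The 4 tested 3p arms gave 2 calls between irradiated and sham mice over the 6 time points in C3H and 8 in C57Bl/6 after irradiation, 1 in each strain, where 2.42% and 4.76% of all tests were called. Neither call was made where the 5p arm of the hairpin was called. The log2 fold change of miR-30e-3p was -0.55 at D2 in C3H (adjusted p = 0.0468) and that of miR-30d-3p 1.77 at D5 in C57Bl/6 (adjusted p = 0.0265) by edgeR. The value of miR-30d-3p rests on few reads, as its levels above show.

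Among the members, miR-30a-5p and miR-30e-5p were the most alike. After the group means were taken out, Pearson's r over 899 samples was 0.85 between them, 0.69 between miR-30b-5p and miR-30c-5p, 0.47 between miR-30a-5p and miR-30d-5p, -0.06 between miR-30a-5p and miR-30c-5p and -0.17 between miR-30c-5p and miR-30e-5p. The located pairs, miR-30c-5p with miR-30a-5p and with miR-30e-5p, were thus not the most alike. Reads of miR-30c-5p pool its loci, so these values cannot show whether the hairpins of a pair vary together. The loci of miR-30b-5p and miR-30d-5p were not read here. The samples share libraries, depth and in part the mouse, so these values describe the data and were given no p.

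Of 128 abundant miRNA, those with the highest mean r over the 5 members were miR-22-3p (0.37), miR-365-3p (0.35) and miR-101a-3p (0.34). For single members the most alike miRNA were miR-101a-3p for miR-30a-5p (0.72), miR-365-3p for miR-30b-5p (0.63), miR-23b-3p for miR-30c-5p (0.64), miR-532-5p for miR-30d-5p (0.60) and miR-93-5p for miR-30e-5p (0.76). Against the log2 ratio of miR-451a to miR-23a-3p, an index of red cell content, r was 0.05 for miR-30a-5p, 0.07 for miR-30d-5p, 0.26 for miR-30e-5p, 0.29 for miR-30b-5p and 0.34 for miR-30c-5p.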

How the data were processed

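Per the study's methods, plasma with excess hemolysis was left out before sequencing, libraries were made with the QIAseq miRNA kit, and reads were aligned to mouse miRNA (build mm10) with the Small RNA application of BaseSpace. The counts of reads per mature miRNA were deposited by the authors without normalization. Whether molecular identifiers were used was not given in the sources used here, so reads were not taken as independent molecules. Strain, treatment, time point, sex, cohort and mouse were read from the sample labels.

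Counts were scaled by TMM (factors 0.372 to 1.59) in edgeR 4.0.16 (R 4.3.3). The 483 miRNA kept by filterByExpr, and all 899 samples in 32 groups of strain, treatment and time point, entered a single quasi-likelihood fit of the group means, and p-values were adjusted by the Benjamini-Hochberg method within each contrast, with a threshold of 0.05. Log2 CPM used a prior count of 2. Sex was tested in a model with sex added to the groups. The miRNA named were the 5 members, their 3p arms, miRNA of the same seed, the 3 most alike miRNA over all members and the most alike of each member, by Pearson correlation among tested miRNA with a mean of at least 6 log2 CPM. The members, marker lists and tests were chosen with earlier results of these data known.

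Mouse numbers in the labels mark the same animal at several time points, so samples are paired by mouse. The consensus correlation between samples of a mouse was 0.0434 (196 mice), and the mouse was used as a random or fixed replicate block in limma-voom (limma 3.58.1). Further alternatives were limma-voom alone, DESeq2 1.42.0, its size factors in edgeR, no TMM factors, quantile normalization of log2 RPM as in the study, other filters on low counts, covariates for sex, cohort and hemolysis index, and fits to 1 cohort or sex. Replicates of a group are separate mice. The p-values of the main edgeR fit rest on the spread within all 32 groups, which includes differences between cohorts and sexes. They do not use the pairing of samples by mouse. The edgeR and limma-voom fits were run on simulated counts with known changes in a single group. These counts held no effect of mouse, cohort or sex, so they cannot show how the fits handle such effects.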

Additional observations from a re-analysis of the deposited data

Results flagged for a closer look

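The effect of irradiation on miR-30a-5p differed between the strains over the 6 shared time points after irradiation (adjusted p = 0.0105, edgeR F test), which is why it is listed here. The difference was largest at M4, where irradiated minus sham was 0.47 higher in C57Bl/6 than in C3H on the log2 scale (standard error 0.15). Taken singly, M4 was not past the threshold (adjusted p = 0.0914, edgeR). Without the C57Bl/6 females of cohort 2, a choice made after seeing the data, the adjusted p of the F test was 0.117. A sample far from the others was looked for in groups of 4 to 10 samples, which left 1 group, the 8 irradiated C57Bl/6 mice at M6. Over the 5 members 0 such samples were found there, where chance alone flags about 1 in 20. Larger groups, such as that of M5, were not tested in this way.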

How the results depend on the processing

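Without TMM factors the median log2 fold change over all miRNA moved by between -0.19 and 0.41, depending on the contrast. Under it, irradiation gave 2 of 30 calls in C3H (0 with TMM, both of them lower at D2) and 2 of 40 in C57Bl/6 (4 with TMM), and the strain difference in the effect (1 member called, miR-30a-5p) gave 0. That difference also gave 0 calls with DESeq2 size factors in edgeR and with only miRNA of at least 50 CPM, where the adjusted p was 0.0542 and 0.0562 by edgeR, and 0 without the C57Bl/6 females of cohort 2. In males alone irradiation gave 1 call of 40 in C57Bl/6, and it was not among the 4. The strain difference before irradiation was called for 5 members in cohort 1, against 3 in all mice. Sham C3H mice gave 16 calls with only miRNA of at least 50 CPM, 5 with quantile-normalized log2 RPM in limma and 18 in cohort 1 alone, against 10. The number of members called between the sexes, 1 in each strain, was 0 in C3H with the hemolysis index as covariate and in cohort 1 alone, and 2 with limma-voom, with the mouse as random replicate block and in cohort 2 alone. In C57Bl/6 it was 0 without TMM factors and in cohort 1 alone, and 2 with DESeq2 size factors, with no filter, with only miRNA of at least 50 CPM and in cohort 2 alone.

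Reversed directions were seen for values near 0 or between cohorts. The effect of irradiation on miR-30a-5p at D2 in C57Bl/6 (-0.05) was 0.051 with DESeq2 size factors, 0.050 with the DESeq2 Wald test, 0.091 without TMM factors, 0.082 with only miRNA of at least 50 CPM, 0.038 in cohort 2 alone and 0.0089 without the females of cohort 2. That on miR-30d-5p at D5 was -0.023 in cohort 1 alone, and that on miR-30b-5p at M4 in C3H was 0.22 with the mouse as fixed replicate block. In cohort 2 alone the strain differences before irradiation were 0.059 (miR-30c-5p), -0.23 (miR-30d-5p) and -0.24 (miR-30e-5p), in females alone that of miR-30d-5p was -0.022, and the change of miR-30c-5p in sham C3H mice at M1 was 0.022. The cause of these changes was not tested.

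The mouse as replicate block in limma-voom changed the calls of miR-30d-5p at D2 and miR-30a-5p at M6 given above, of miR-30d-5p in sham C3H mice at M3 (0.24, adjusted p = 0.0550, fixed) and of miR-30c-5p in sham C57Bl/6 mice at M2 (adjusted p = 0.0669 random, 0.114 fixed, not called without the block in limma-voom either), the number called between the sexes in C3H, and no other call named here. Fits to cohort 2, without a cohort and sex, without 1 female at M5 and with a block for cohort and sex, and cohort 1 or a single sex outside the irradiation effect, were chosen after seeing the data. Leaving out replicates in turn was not run for groups of 8 to 68 mice. The lowest count of a member in a sample was 1 read, for miR-30b-5p.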
